A study of Mus musculus with 24 samples.

Results

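The 77 potassium channel genes described here are those whose symbol in the platform annotation starts with Kcn, leaving out Kcne2, Kcnj13 and Kcnj8, the Kcnip genes and Kcnrg. They were measured by 152 of the 34945 probe sets that carry 1 gene symbol, and are 77 of 18193 genes in all. Of these, 74 code for pore-forming or auxiliary subunits of 18 subfamilies, and 3 are noncoding RNAs that carry the name of a neighbouring channel gene (Kcnmb4os1, Kcnmb4os2 and Kcnq1ot1). Probe sets of the same gene were averaged, and 35 genes had 1 and 42 had several, up to 6. Some other channel genes are not analysed here.

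The samples were wild-type male C57BL/6 mice, labelled as 6 to 8 weeks old (the upper end of the range in the sample descriptions rises from sample to sample). The methods give this age for the mice at purchase, before the stress began. Mice were either kept as controls or put through chronic mild stress (CMS), a sequence of single and combined mild stressors. The sequence was the same for all stressed mice and ran for 4 weeks on 6 days per week. RNA of the amygdala, the hippocampus, the prefrontal cortex and the cerebral cortex was measured on 24 Affymetrix arrays, 3 for each of the 8 groups of area and treatment. The values are log2 and were deposited centred, with the median of any probe set across all 24 arrays at 0, so that 0 stands for the middle of the arrays and a difference of 1 is a 2-fold difference, while the level of 1 gene cannot be set against that of another. Pooled RNA is named in the methods and independent mice elsewhere, so p-values measure only the spread between these arrays, which may be technical.

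Potassium channels let potassium leave the cell down its gradient, which sets the resting potential, ends action potentials and spaces the next ones. The voltage-gated families are built from pore-forming subunits (Kcna to Kcnd, Kcnh, Kcnq), from silent subunits that form channels only together with others (Kcnf, Kcng, Kcns, Kcnv) and from auxiliary subunits (Kcnab, Kcne). The inward rectifiers (Kcnj) and the tandem-pore leak channels (Kcnk) hold the membrane near rest and clear potassium into glia, and Kcnma, Kcnmb, Kcnn and Kcnt form channels that open with intracellular calcium or sodium.

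The area labels were checked against marker genes. Markers of the hippocampal fields were higher in the control hippocampus than in the other control areas (9 of 10 measured genes called, median difference 3.44 on the log2 scale), and amygdala markers were higher in the control amygdala (4 of 7 called, median 1.35). Markers of the striatum were also higher there (10 of 12 called, median 2.66) and in the control prefrontal cortex (9 of 12 called, median 2.34). The RNAs added as poly-A controls lay at a mean of -4.02 in the control and -4.11 in the CMS hippocampus, against -0.55 to 0.50 in the other 6 groups, so area and array handling cannot be told apart for the hippocampus. In bulk tissue, fewer cells of a type and less RNA per cell cannot be told apart either.

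The first question was how the control areas differ in their channel genes. Each control area was compared with the mean of the other 3 in limma, and a gene was called at a Benjamini-Hochberg adjusted p under 0.05 over all genes and a fold over 2. The 4 comparisons share their arrays. In the amygdala 6 of 77 genes were called (7.79%, against 2.95% of all genes tested), 2 higher and 4 lower (1.82% and 1.13% of all genes). In the hippocampus 10 were called (13%, against 3.89%), 2 higher and 8 lower (1.39% and 2.51%). The cerebral cortex had 8 calls (10.4%, against 2.55%), 7 higher and 1 lower (1.21% and 1.34%). The prefrontal cortex had 8 as well, all of them higher (10.4%, against 1.91%, or 1.35% higher and 0.555% lower). At adjusted p alone, which leaves out the fold, 45, 43, 42 and 39 channel genes passed in this order of areas (58.4%, 55.8%, 54.5% and 50.6%, against 39%, 52.8%, 31.6% and 44.2% of all genes). These 32 calls fell on 18 genes, of which 8 were called in 1 area, 8 in 2 areas and Kcna5 and Kcnab3 in all 4, and 59 genes were called in none. So 23.4% of the channel genes were called in 1 or more areas, against 6.63% of all genes. The range of the 4 control means was over 1 for 26 genes (33.8%, against 10.4% of all genes), with a median of 0.64 over the channel genes and 0.30 over all genes. Of these 26, the highest mean was in the cerebral cortex for 11, and the lowest was in the hippocampus for 12. The same counts over all genes are not given here, so these do not set the channel genes apart.

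**Figure D1:**
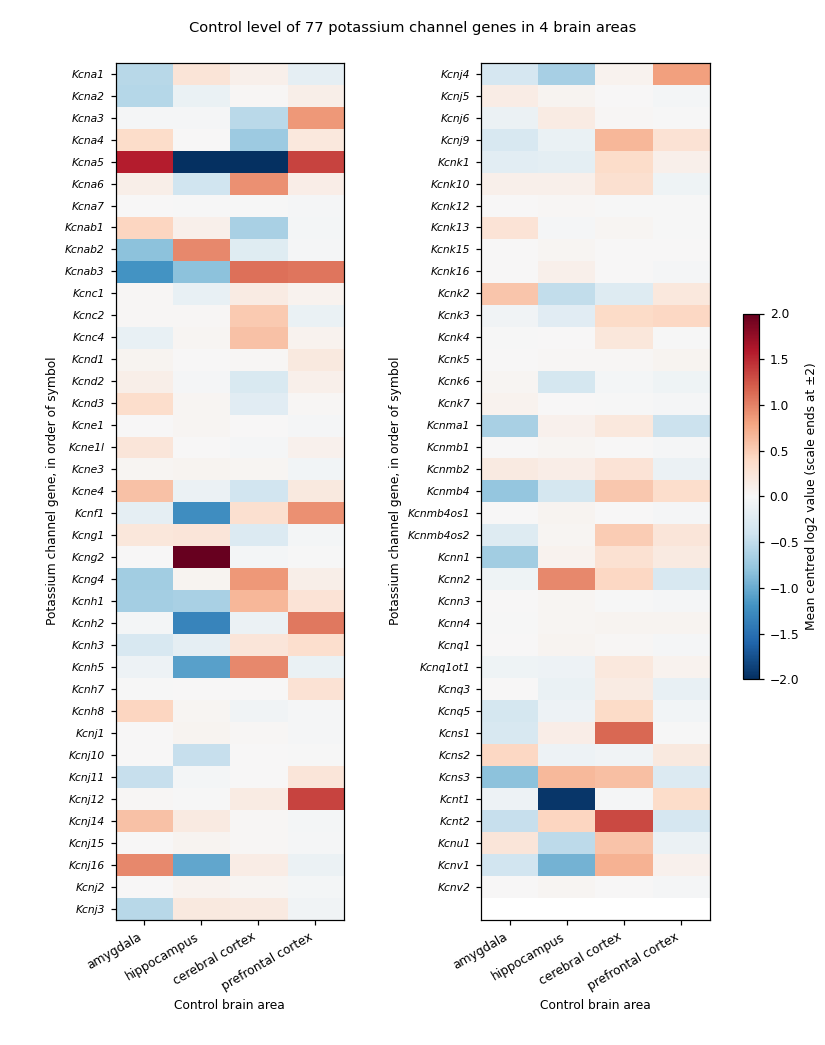
Mean centred log2 value of the 3 control arrays (colour, scale ending at ±2) for each of the 77 genes (rows, in order of symbol) in the 4 control areas (columns). Kcna5 is dark in all 4 columns, with 2 areas high and 2 low, and many genes of the Kcnj and Kcnk subfamilies are close to 0 in every area.

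Kcna5, a delayed rectifier of the Kcna subfamily, had the widest range of the 77 genes, 4.69. Its control values were 1.48, 1.63 and 1.61 in the amygdala and 1.26, 1.41 and 1.38 in the prefrontal cortex. They were -3.46, -2.86 and -3.02 in the hippocampus and -3.06, -3.06 and -2.39 in the cerebral cortex. The arrays thus formed a high and a low pair of areas with no overlap. Between the pairs the step was 4.18 (adjusted p = 3.13e-07, limma), and within each pair the areas did not differ beyond their spread (0.23, adjusted p = 0.356, between amygdala and prefrontal cortex, and 0.28, adjusted p = 0.271, between cerebral cortex and hippocampus). The markers of the striatum had the same order, with means over 12 genes of 1.13 in the control amygdala, 0.97 in the prefrontal cortex, -2.32 in the cerebral cortex and -2.50 in the hippocampus, and their part in the values of Kcna5 was not tested. Kcna3, another delayed rectifier, was called higher in the prefrontal cortex (1.06 ± 0.08, SE), where its arrays read 0.89, 0.86 and 0.85 against at most 0.05 in the other areas. The other 5 Kcna genes were called in no area.

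The silent subunits held calls in 6 of 9 genes, where 6.63% of all genes were called in 1 or more areas. Kcng2 read 2.65, 2.24 and 2.84 in the control hippocampus and between -0.12 and 0.01 on the 9 other control arrays. It was thus set apart in the hippocampus (2.59 ± 0.10, adjusted p = 2.27e-08, limma) and level in the other 3 areas, whose steps were 0.01 (adjusted p = 0.956) and 0.04 (adjusted p = 0.777). Kcnf1 fell in the order prefrontal cortex (0.93, 0.87 and 0.93), cerebral cortex (0.34, 0.39 and 0.22), amygdala (-0.13, -0.12 and -0.30) and hippocampus (-1.38, -1.13 and -1.24). No 2 areas overlapped for Kcnf1 and each step passed the test, with adjusted p = 1.44e-04, 3.78e-04 and 1.35e-06. Kcnv1 had the tightest arrays of the genes called, with SDs of 0.01 to 0.06, and each of its steps passed too, from 0.69 in the cerebral cortex through 0.09 in the prefrontal cortex and a mean of -0.38 in the amygdala down to -0.95 in the hippocampus.

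Kcns1, Kcns3 and Kcng4 were spread more widely in the cerebral cortex. The control arrays of that area read 1.25, 1.80 and 0.38 for Kcns1, which was called higher there (1.21 ± 0.23). They read 1.34, 1.01 and 0.27 for Kcng4, called higher there (1.05 ± 0.19) and lower in the amygdala (-1.05 ± 0.19). For both genes the third array was the lowest. Kcns3 was called lower in the amygdala (-1.15 ± 0.16), at -0.87, -0.67 and -0.93. Without the second cerebral cortex array the difference of Kcns1 was 0.88, and without the second amygdala array or the first cerebral cortex array that of Kcng4 in the amygdala was -0.97, both under the fold threshold but still past adjusted p alone.

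Among the Kcnh genes, which code for the ether-à-go-go family, 3 of 6 were called in 1 or more areas (6.63% of all genes). Kcnh2, the channel of the rapid cardiac delayed rectifier, read 0.86, 0.94 and 1.37 in the control prefrontal cortex and -1.28, -1.46 and -1.23 in the control hippocampus. Amygdala (-0.01, -0.07 and -0.02) and cerebral cortex (0.20, 0.02 and -0.58) lay between and did not differ beyond their spread (0.08, adjusted p = 0.905). Kcnh5 was higher in the cerebral cortex (1.40 ± 0.17) and lower in the hippocampus (-1.33 ± 0.17), and Kcnh1 was higher in the cerebral cortex (1.01 ± 0.13). No Kcnq gene was called. Kcnq5, a subunit of the M current, which holds back repetitive firing, passed adjusted p alone in the amygdala (-0.42), the hippocampus (-0.10) and the cerebral cortex (0.55), and Kcnq3, its partner in that current, in the cerebral cortex (0.26). The hippocampal value of Kcnq5 turns with the probe set, since its 3 probe sets all passed and gave -0.17, 0.22 and -0.35.

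Of the channels opened by sodium, Kcnt1 read -2.20, -1.97 and -1.68 in the control hippocampus, and from -0.19 to 0.45 on the 9 other control arrays. Its 3 probe sets gave -2.10, -2.22 and -1.76 for the hippocampus against the other areas. The related Kcnt2 was called higher in the cerebral cortex, with 1.29, 1.25 and 1.41 there, 0.33, 0.51 and 0.43 in the hippocampus and negative values on every array of the other areas. The calcium-activated genes were not called in any area. The closest was Kcnn2, higher in the hippocampus (0.97 ± 0.05, adjusted p = 2.02e-07) at 0.99, 0.93 and 0.98, just under the fold threshold. Kcnma1, the pore of the large-conductance channel, differed by 0.55 in the cerebral cortex and by -0.60 in the amygdala, and its 5 probe sets gave -0.12 to 1.59 in the former.

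The auxiliary Kcnab genes code for cytoplasmic partners of the Kcna channels, and 2 of 3 were called in 1 or more areas (6.63% of all genes). Kcnab2 read 0.92, 0.93 and 1.02 in the hippocampus and -0.79, -0.89 and -0.81 in the amygdala, with the other areas between -0.41 and 0.07. Kcnab3 was lower in the hippocampus and the amygdala than in the cortex, at 1.17, 1.29 and 0.85 in the cerebral and 0.96, 1.16 and 1.08 in the prefrontal cortex against -0.84, -0.85 and -0.78 in the hippocampus and -1.52, -0.90 and -1.18 in the amygdala. For Kcnab3 the step between the cortical areas was 0.03 (adjusted p = 0.875) and that between hippocampus and amygdala 0.38 (adjusted p = 0.0726), both within the spread. Kcnab1 was called in no area and passed adjusted p alone in the other direction, with 0.62 in the amygdala and -0.80 in the cerebral cortex.

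Of 13 inward rectifiers, 3 were called in 1 or more areas (6.63% of all genes). Kcnj16, which assembles with Kcnj10 in astrocytes, read 0.82, 1.02 and 1.05 in the amygdala and -0.98, -0.97 and -1.18 in the hippocampus, with no overlap with the other areas. Kcnj10 itself was lower in the hippocampus at adjusted p alone (-0.46). Its higher values in the amygdala (0.15), cerebral cortex (0.16) and prefrontal cortex (0.15) passed too, each against a mean that includes the hippocampus. The control amygdala differed from the cerebral cortex by -0.004 (adjusted p = 0.997, limma) and from the prefrontal cortex by 0.002 (adjusted p = 0.982, limma). Leaving out 1 array at a time, these higher values failed in 9, 10 and 9 of 12 fits. Astrocyte markers passed higher at adjusted p alone for 8 of 10 genes in the amygdala (median 0.30) and were mixed in the hippocampus (3 higher, 5 lower), and their part in the values of Kcnj16 was not tested. The strong rectifiers Kcnj4 (1.14 ± 0.04) and Kcnj12 (1.29 ± 0.25) were higher in the prefrontal cortex. The arrays of Kcnj12 there read 2.06, 0.61 and 1.39, and without the first its difference was 0.93. None of the 12 leak channels of the Kcnk subfamily was called, where the differences ranged from -0.66 to 0.73, both of them of Kcnk2.

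**Figure D2:**
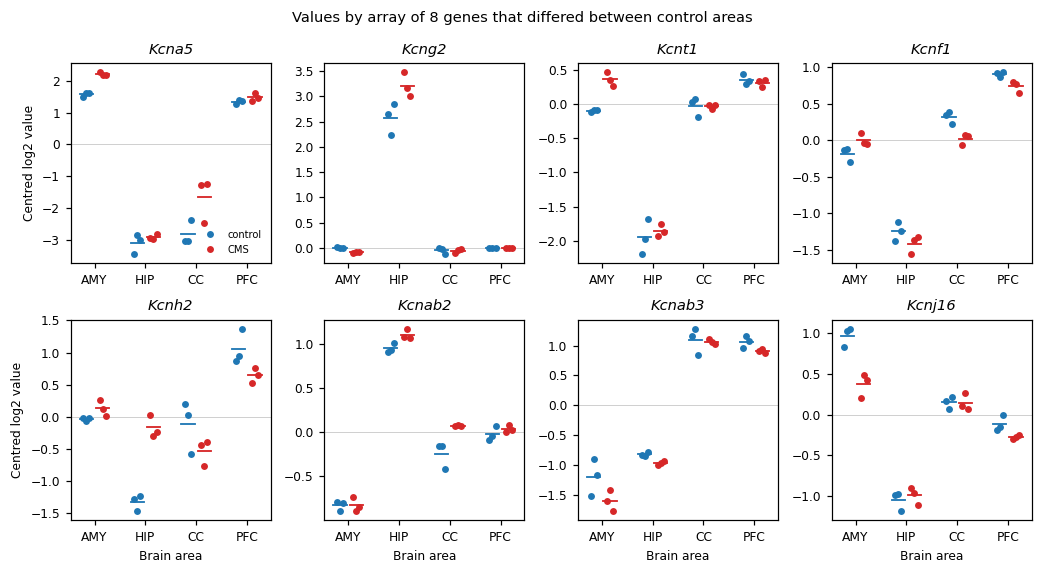
Centred log2 value of each array (points) and the mean of 3 (bars) for 8 genes called between control areas, in the amygdala (AMY), hippocampus (HIP), cerebral cortex (CC) and prefrontal cortex (PFC), control in blue and CMS in red. Kcng2 is high only in the hippocampus and Kcnt1 is low there, and the CMS arrays of Kcnh2 in the hippocampus and of Kcna5 in the amygdala lie above the control arrays of the same area.

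Kcna5, Kcnab3, Kcnf1, Kcnh2 and Kcnt1 were called lower in the control hippocampus and higher in the control prefrontal cortex. Each call is against the mean of the other areas, and for Kcnt1 the control amygdala minus the control prefrontal cortex was only -0.46. Promoter windows of 57 of the 77 genes were matched in RefSeq (GRCm38.p6, 250 bases before to 50 after a start of transcription). Neither Kcnt1 nor Kcnab3 had one. The windows of Kcna5, Kcnf1 and Kcnh2 are shown because these genes shared the same pair of calls, lower in the hippocampus and higher in the prefrontal cortex. Kcna5 lies at chr6:126535506-126535805, Kcnf1 at chr12:17176839-17177138 and Kcnh2 at chr5:24329542-24329841, all on the minus strand. The windows of Kcna5 and Kcnf1 are cut around the annotated start of the gene, while that of Kcnh2 is cut around a start 22093 bases inside it. Capitals mark matches, on either strand, to a GC box (GGGCGG), an EGR motif (GCGNGGGCG), a CRE (TGACGTCA), an AP-1 motif (TGANTCA) or a TATA box (TATAAA).
Kcna5: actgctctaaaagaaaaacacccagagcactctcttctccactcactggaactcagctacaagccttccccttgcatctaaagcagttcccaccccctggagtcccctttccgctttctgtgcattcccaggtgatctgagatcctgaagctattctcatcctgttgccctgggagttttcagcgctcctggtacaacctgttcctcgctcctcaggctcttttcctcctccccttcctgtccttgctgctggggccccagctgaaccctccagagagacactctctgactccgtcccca
Kcnf1: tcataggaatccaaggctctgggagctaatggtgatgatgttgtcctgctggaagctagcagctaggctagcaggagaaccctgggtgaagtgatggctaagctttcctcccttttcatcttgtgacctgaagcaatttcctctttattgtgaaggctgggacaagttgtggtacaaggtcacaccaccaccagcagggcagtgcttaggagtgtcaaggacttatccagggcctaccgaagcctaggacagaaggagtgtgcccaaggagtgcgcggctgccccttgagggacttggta
Kcnh2: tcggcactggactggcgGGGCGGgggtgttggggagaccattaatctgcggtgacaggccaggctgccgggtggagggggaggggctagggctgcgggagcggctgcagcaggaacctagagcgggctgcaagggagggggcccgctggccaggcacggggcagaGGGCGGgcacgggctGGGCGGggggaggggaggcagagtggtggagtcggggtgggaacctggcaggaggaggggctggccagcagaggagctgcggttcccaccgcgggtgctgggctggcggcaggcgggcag
The GC box was found 3 times in the window of Kcnh2 and in neither of the others, and no other motif was found in the 3 windows. The windows were 55% (Kcna5), 53% (Kcnf1) and 74.3% (Kcnh2) G or C, against a median of 52.7% over all windows. Of 32851 windows of all genes, 35.7% held a GC box, 5.55% an EGR motif, 1.79% a CRE, 7.81% an AP-1 motif and 13.6% a TATA box. Of the 76 windows of channel genes, 50% held a GC box, 3.95% an EGR motif, 0% a CRE, 2.63% an AP-1 motif and 5.26% a TATA box. A match is only a description of the letters in these windows.

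The area differences were then read on the CMS arrays, which the control comparisons did not use. All 32 calls had the same sign there and 22 were called again in the same direction. The count was 3 of 6 for the amygdala, 9 of 10 for the hippocampus, 6 of 8 for the cerebral cortex and 4 of 8 for the prefrontal cortex. How often the calls of all genes were repeated is not given here, so these counts do not set the channel genes apart. By the CMS arrays alone 7, 12, 7 and 5 genes were called (9.09%, 15.6%, 9.09% and 6.49%, against 3.04%, 5.02%, 2.31% and 1.56% of all genes). Across the 77 genes the differences of control and of CMS arrays correlated with r = 0.902, 0.926, 0.902 and 0.905 in these areas, as a description over genes that are not independent (0.798, 0.898, 0.789 and 0.813 over all genes). Kcna5 was again higher in the amygdala (3.24 ± 0.22) and the prefrontal cortex (2.28 ± 0.22) and lower in the hippocampus (-3.60 ± 0.22) and the cerebral cortex (-1.92 ± 0.22). The hippocampal difference of Kcnh2 was -1.63 ± 0.16 in control and -0.25 ± 0.10 in CMS arrays, and in the latter it did not pass (adjusted p = 0.0655). Kcnk6, a leak channel called in no control area, was called in the CMS amygdala (1.07 ± 0.14) and hippocampus (-1.47 ± 0.14).

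**Figure D3:**
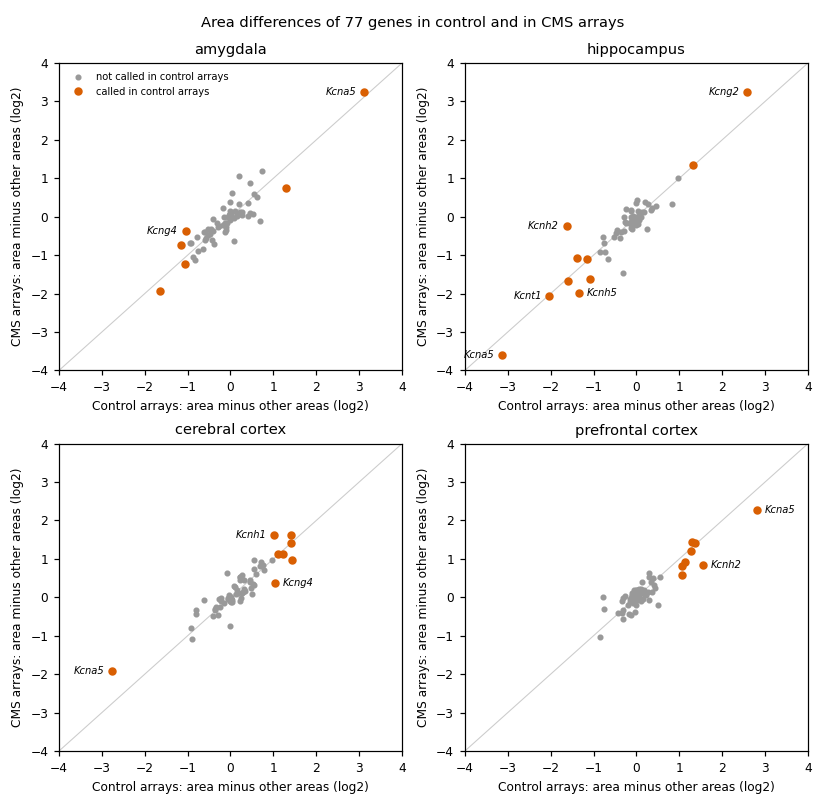
Difference of each area from the mean of the other 3 areas (log2) on the control arrays (horizontal) and on the CMS arrays (vertical) for the 77 genes, with the genes called on the control arrays in orange and the line of equal values in grey. The genes farthest from 0 or from the line are named, and Kcnh2 in the hippocampus lies at -1.63 and -0.25.

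The second question was what CMS changed within each area. At a fold over 2, CMS called 1 channel gene in the hippocampus (1.3%, against 0.253% of all genes, 0.143% in the direction of that gene) and 0 in the amygdala, cerebral cortex and prefrontal cortex in limma, where 0.583%, 0.357% and 0.247% of all genes were called. At an unadjusted p under 0.05 there were 39, 19 and 17 genes in these 3 areas (36.7%, 24.1% and 23.3% of all genes passed), and the methods' t-test also called 0 in each. At adjusted p alone, 18 genes passed in the amygdala (23.4%, against 19.4% of all genes), 10 of them higher (10.5% of all genes) and 8 lower (8.84%). In the hippocampus 30 passed (39%, against 29.6%), 6 higher (4.66% of all genes) and 24 lower (24.9%). The cerebral cortex had 10 (13%, against 9.94%), 6 higher (5.95%) and 4 lower (3.99%), and the prefrontal cortex 3 (3.9%, against 8.37%), 2 higher (4.45%) and 1 lower (3.92%). The median size of the change was 0.13, 0.10, 0.10 and 0.05 over the channel genes and 0.08, 0.07, 0.07 and 0.06 over all genes. In the hippocampus the median of all genes was itself -0.05, and 12 of the 24 lower genes differed by less than 0.08. With each array centred on its median, 11 genes passed there, 6 higher and 5 lower.

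**Figure D4:**
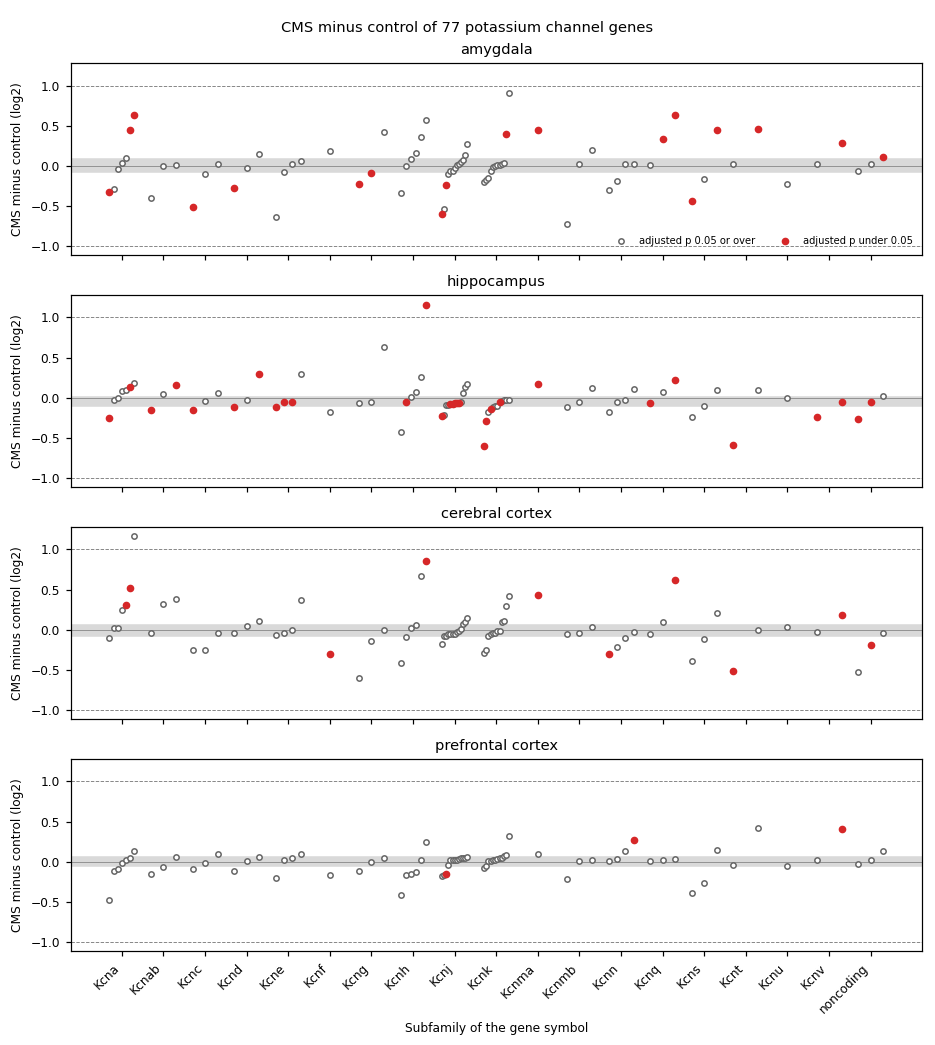
CMS minus control (log2) of each of the 77 genes by subfamily, 1 panel per area, with filled red points at adjusted p under 0.05, open points at or over it, the interquartile range of all 18193 genes as a grey band and dashed lines at a fold of 2. Kcnh2 in the hippocampus is the only red point beyond a dashed line, and the prefrontal cortex holds 3 red points.

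Kcnh2 was the channel gene called with CMS. In the hippocampus it read -1.28, -1.46 and -1.23 in controls and 0.03, -0.29 and -0.23 with CMS, a rise of 1.16 ± 0.11 (SE; adjusted p = 0.00791, limma) with no overlap of the arrays. The CMS arrays thus lay within the range of the control cerebral cortex. In the other areas Kcnh2 did not pass, at 0.17 in the amygdala, -0.42 in the cerebral and -0.41 in the prefrontal cortex. Its effect differed between areas (F test over 4 areas, adjusted p = 1.00e-04, limma). After quantile normalization the rise was 0.90, under the fold threshold, and in the fit with a replicate block it was 1.16 at adjusted p = 0.0526 (limma). Kcnh2 rests on 1 probe set. On the same arrays the thalamus and habenula markers rose in 11 of 12 genes at adjusted p alone (6 called, median 1.01), and the mean of the 12 went from -0.67 to -0.58 over the control arrays to 0.53 to 0.62 over the CMS arrays, and their part in the rise of Kcnh2 was not tested.

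Other hippocampal genes passed at adjusted p alone. Kcnt2 fell by 0.59 (SE 0.05), from 0.33, 0.51 and 0.43 to -0.21, -0.18 and -0.11, and Kcnk6 fell by 0.60 (SE 0.15), from -0.49, -0.45 and -0.12 to -1.17, -0.79 and -0.89. Neither pair of groups overlapped. The leak channel Kcnk2, which is opened by stretch and lipids, fell by 0.28, Kcna4 by 0.25 and Kcnmb4os2 by 0.26. Kcnd3, a subunit of the A-type current, rose by 0.30, Kcnq5 by 0.23 and Kcnma1 by 0.17. The 3 probe sets of Kcnq5 passed there in both directions (1.11, -0.13 and -0.30), as did 2 of the 4 of Kcna1 (0.29 and -0.08). By subfamily, 6 of 13 Kcnj, 4 of 12 Kcnk and 3 of 4 Kcne genes passed lower, where 24.9% of all genes did, and none of these passed higher, and the Kcnj and Kcne genes were among the small differences apart from Kcnj3 (-0.22) and Kcne3 (-0.12). Leaving out 1 array at a time, Kcnt2, Kcnq5 and Kcnma1 passed in all 6 fits, Kcnk2 in 3, Kcnd3 in 1 and Kcnk6 in none. Kcng2, which marked the hippocampus, read 2.65, 2.24 and 2.84 in controls and 3.48, 3.16 and 3.00 with CMS, which did not pass (0.63 ± 0.20, adjusted p = 0.0639).

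In the amygdala, Kcnq3 was level in controls (0.02, 0.13 and -0.12) and higher with CMS (0.66, 0.62 and 0.63), a rise of 0.63 ± 0.07 (adjusted p = 0.00663, limma). Its effect differed between areas (adjusted p = 3.95e-04), with 0.08 in the hippocampus, 0.10 in the cerebral and 0.01 in the prefrontal cortex, where it did not pass. Both of its probe sets were higher in the amygdala, by 0.52 and 0.74. Kcnq5 rose as well (0.34 ± 0.07), as a mean of 3 probe sets whose signs were mixed in the hippocampus and the cerebral cortex. Kcna5 rose by 0.63 ± 0.05, from 1.48, 1.63 and 1.61 to 2.27, 2.17 and 2.18. The striatal markers passed higher for 9 of 12 genes (median 0.37), and their part in the rise of Kcna5 was not tested.

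Further rises in the amygdala were those of Kcnt1 (0.46), Kcna1 (0.44), Kcns3 (0.44), Kcnma1 (0.44), Kcnk2 (0.39) and Kcnv1 (0.29). Those of Kcna1 and Kcnma1 are means of probe sets whose signs were mixed in the cerebral cortex. The largest falls were those of Kcnj16 (-0.59 ± 0.10), from 0.82, 1.02 and 1.05 to 0.20, 0.49 and 0.43, of Kcnc4, a fast channel of the Kcnc subfamily (-0.51 ± 0.07), and of Kcns1 (-0.44 ± 0.09). Kcna3 (-0.32), Kcnd3 (-0.28), Kcnj3 (-0.24) and Kcng1 (-0.22) fell too. Leaving out 1 array at a time, Kcnq3, Kcna5, Kcnt1, Kcna1 and Kcnc4 passed in all 6 fits, Kcnj16 in 4, Kcnq5 and Kcns1 in 2 and Kcnma1 in 1. On these arrays the oligodendrocyte markers passed lower for 8 of 9 genes (median -0.57), the amygdala markers for 4 of 7 (median -0.52) and the astrocyte markers for 5 of 10 (median -0.18), and the hybridisation controls read 0.83 ± 0.08 with CMS and 0.02 ± 0.01 in controls (SD, n = 3), and their part in these changes was not tested.

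In the cerebral cortex, Kcnh1 rose by 0.85 ± 0.14, from 0.70, 0.91 and 0.37 to 1.53, 1.57 and 1.43 (adjusted p = 0.0226, limma). Kcnq5 rose by 0.62 ± 0.05, from 0.38, 0.34 and 0.42 to 0.92, 0.99 and 1.07, and Kcna1, a low-threshold channel of axons, by 0.52 ± 0.02, from 0.11, 0.12 and 0.09 to 0.61, 0.62 and 0.64. None of these groups overlapped. Kcnma1 rose by 0.43, Kcna2 by 0.30 and Kcnv1 by 0.19. Kcnt2 (-0.52 ± 0.09), Kcnn2 (-0.30), Kcnf1 (-0.30) and Kcnq1ot1 (-0.19) fell. Leaving out 1 array at a time, Kcnq5, Kcna1 and Kcnma1 passed in all 6 fits, Kcna2 in 5, Kcnh1 in 2, Kcnt2 and Kcnf1 in 1 and Kcnn2 in none. Kcna5 read -3.06, -3.06 and -2.39 in controls and -1.27, -2.46 and -1.26 with CMS, a difference of 1.17 ± 0.39 that did not pass (adjusted p = 0.143). Striatal markers rose in 11 of 12 genes on the same arrays (8 called, median 1.45), choroid plexus markers fell in 10 of 10 (9 called, median -2.08) and the Actb probe sets of the 3 prime minus those of the 5 prime end went from 0.19 ± 0.10 to -0.41 ± 0.04 (SD, n = 3), and their part in these changes was not tested.

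Probe sets of 1 gene did not always move together. Of the genes with several that passed adjusted p alone with CMS, the signs were mixed for 5 of 13 in the amygdala, 5 of 16 in the hippocampus and 5 of 8 in the cerebral cortex. In the cerebral cortex the 3 probe sets of Kcnq5 gave 2.37, -0.26 and -0.26, so its mean rests on 1 of them, the one that gave 1.11 in the hippocampus. The 4 of Kcna1 gave 1.29, 0.83, 0.01 and -0.06, and the 5 of Kcnma1 gave 1.91, 1.45, -0.02, -0.15 and -1.04. For Kcna2, Kcnma1 and Kcnq5 different probe sets passed in both directions in that area. Called singly at a fold over 2, 6 of 152 probe sets passed in the cerebral cortex (against 1.12% of all probe sets), 3 in the amygdala (1.19%), 2 in the hippocampus (0.651%) and 0 for the prefrontal cortex (0.209%). For the area calls in controls the probe sets were on the same side in each of the genes called with several.

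In the prefrontal cortex 3 genes passed. Kcnv1 rose by 0.41 ± 0.03, from 0.12, 0.09 and 0.05 to 0.50, 0.45 and 0.54 (adjusted p = 0.00638, limma), Kcnn2, a small-conductance calcium-activated channel, rose by 0.27, and Kcnj4 fell by 0.16. Leaving out 1 array at a time, Kcnv1 passed in all 6 fits and the other 2 in 1 each. Kcnv1 was the only channel gene that passed adjusted p alone in all 4 areas. It was higher in 3 and lower in the hippocampus (-0.23 ± 0.06, adjusted p = 0.0426, limma). The hippocampal fall passed narrowly, in an area where the median of all genes was -0.05. In the fit with a replicate block no channel gene passed adjusted p alone in the hippocampus or the prefrontal cortex. The effect of CMS on Kcnv1 differed between areas (adjusted p = 3.63e-06, limma). Neutrophil markers rose in 6 of 8 genes on the prefrontal arrays (6 called, median 3.56), and their part in these changes was not tested.

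**Figure D5:**
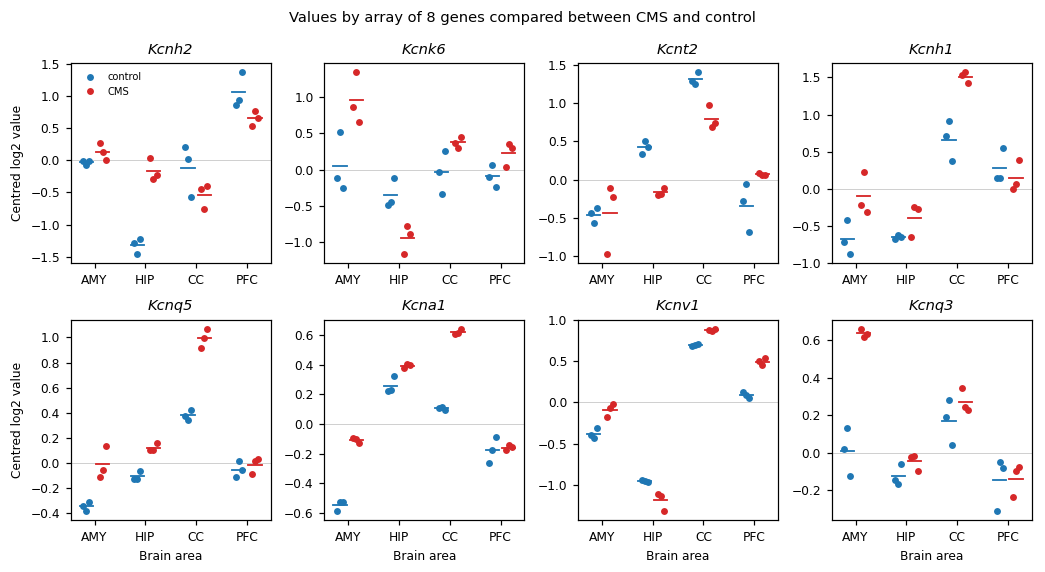
Centred log2 value of each array (points) and the mean of 3 (bars) for 8 genes compared between control (blue) and CMS (red) in the amygdala (AMY), hippocampus (HIP), cerebral cortex (CC) and prefrontal cortex (PFC). Kcnh2 separates in the hippocampus, Kcnq3 in the amygdala and Kcnv1 in all 4 areas, where its CMS arrays are lower in the hippocampus and higher elsewhere.

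Of the textbook members whose CMS effect is not yet described, Kcnd2, the main A-type subunit of dendrites, fell by 0.11 in the hippocampus (adjusted p = 0.0453, limma). It passed in none of the 6 fits that left out 1 array. With CMS, Kcnc1, the fast channel of interneurons, and Kcnj10 passed in no area. The effect of CMS differed between areas at adjusted p under 0.05 for 45 of 77 genes (58.4%, against 52.3% of all genes). It differed by a range over 1 for 5 of them (6.49%, against 2.47%). Some of the 45, such as Kcne1 (adjusted p = 0.00427, F test in limma), had small effects close to the medians of all genes. Kcne1 changed by 0.03 in the amygdala (median 0.02) and by -0.05 in the hippocampus (median -0.05). Its changes were -0.03 in the cerebral cortex (median -0.03) and 0.02 in the prefrontal cortex (median 0.02). How many of the 45 only follow these medians was not tested.

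Genes that act with the channels were read from lists, by how many passed adjusted p alone, given in the order amygdala, hippocampus, cerebral cortex, prefrontal cortex. Of the 6 partners of the Kcnd channels (Kcnip1 to Kcnip4, Dpp6 and Dpp10), 1, 1, 3 and 5 passed, with medians of 0.02, 0.06, -0.01 and -0.03, and Kcnip3, a calcium sensor, rose by 0.52 in the cerebral cortex. Of 7 partners of other voltage-gated channels, 3, 0, 2 and 1 passed. Amigo1, an adhesion protein of neurons, rose by 0.50 in the amygdala and fell by 0.33 in the cerebral cortex. None of these partners was called at a fold over 2.

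Over all genes 19.4%, 29.6%, 9.94% and 8.37% passed in these areas. Of 7 sodium channel genes measured, 2, 1, 2 and 2 passed, and Scn4b rose by 0.74 in the cerebral and fell by 0.60 in the prefrontal cortex. Of 7 calcium channel genes, 2, 1, 1 and 0 passed, and Cacna1g, of the low-threshold calcium current of thalamic cells, rose by 0.63 in the hippocampus. Of 2 HCN channels measured, 0, 0, 0 and 1 passed, and of 3 subunits of the sodium/potassium ATPase 1, 0, 0 and 1. The immediate early genes, which follow neuronal activity, fell in 7, 9, 9 and 10 of 10 genes (1 rose in the amygdala), with medians of -0.72, -0.74, -1.12 and -1.03 against 0.02, -0.05, -0.03 and 0.02 over all genes.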

How the data were processed

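The authors read the arrays (Affymetrix Mouse Genome 430 2.0, labelled with a two-cycle kit) in GeneSpring GX and summarized them with GCRMA and a baseline normalization, in versions not given in the sources used here. Deposited values are log2 and their median over the 24 arrays is 0 for every probe set (largest absolute median 5e-07), so no brightness or background can be read from them, and precision is limited by the 3 arrays of a group, whose SD had a median of 0.033 to 0.066 over probe sets.

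Of 45101 probe sets, 64 Affymetrix controls were left out and 45037 tested. Gene symbols came from the platform annotation (34945 probe sets with 1 symbol, 932 with several, 9160 with none), and genes were means of probe sets. Each area was fitted separately for CMS against control, the 12 control arrays together for areas, the 12 CMS arrays likewise, and all 24 for the difference of CMS effects between areas, in limma 3.58.1 (R 4.3.3), two-sided, with Benjamini-Hochberg adjustment over all 18193 genes. An exact permutation test of 3 arrays against 3 cannot go below 0.1 and was not used. Genes were named by a rule: up to 4 called higher and 4 lower per control area, called members per CMS comparison or, under 4, up to 3 higher and 3 lower at adjusted p alone, the 5 widest ranges of CMS effects, and textbook members. Other genes named were chosen after their values were seen. The members, lists and rule were chosen with earlier results of these data known. Alternatives were quantile normalization, median centring, the most variable probe set per gene, no _s_at or _x_at probe sets, the more variable genes only, robust eBayes, a replicate block, all arrays in 1 fit, array weights, the methods' t-test, no fold threshold and leaving out each array. The scripts were tested on simulated data. Python 3.11.15 with matplotlib 3.10.9 drew the plots.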

Additional observations from a re-analysis of the deposited data

Results flagged for a closer look

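The effect of CMS differed between the 4 areas, by an F test of the interaction in limma, for 5 channel genes whose 4 effects spanned over 1 on the log2 scale. For Kcnh2 the effects spanned 1.58 (adjusted p = 1.00e-04), from -0.42 in the cerebral cortex to 1.16 in the hippocampus. Those of Kcnk6 spanned 1.51 (adjusted p = 0.00266), from -0.60 in the hippocampus to 0.91 in the amygdala, where it did not pass by itself (adjusted p = 0.0861). Those of Kcng4 spanned 1.01 (adjusted p = 0.0309), from -0.59 in the cerebral cortex to 0.42 in the amygdala, and it passed in no single area. Those of Kcne4 spanned 1.01 (adjusted p = 0.0145), from -0.63 in the amygdala to 0.37 in the cerebral cortex, and it passed in none either. Those of Kcnt2 spanned 1.00 (adjusted p = 0.0060), from -0.59 in the hippocampus to 0.41 in the prefrontal cortex. Kcna5 had a span of 1.03 and missed the threshold (adjusted p = 0.0514).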

How the results depend on the processing

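Without the fold threshold, the counts of channel genes were those at adjusted p alone: 18, 30, 10 and 3 for CMS (order: amygdala, hippocampus, cerebral cortex, prefrontal cortex), 45, 43, 42 and 39 for the control areas and 54, 40, 55 and 33 for the CMS areas. Quantile normalization called 0 genes with CMS in the hippocampus, but 1 for the cerebral cortex, with 12 in the hippocampus at adjusted p alone, where median centring gave 11 and the more variable genes alone 8. With the most variable probe set per gene, CMS called 2 genes in the amygdala, 2 in the hippocampus and 4 for the cerebral cortex (18 at adjusted p alone in the hippocampus), the control amygdala had 12 calls, the CMS amygdala 11, the CMS cerebral cortex 12 and the CMS prefrontal cortex 10, and 15 had CMS effects spanning over 1. This choice reversed Kcnq5 in the control hippocampus (0.22, adjusted p = 0.0128) and Kcnc1 in the control prefrontal cortex (-0.34, adjusted p = 1.83e-04). In 1 fit of all arrays 29 genes passed adjusted p alone with CMS in the amygdala and 21 in the cerebral cortex, where 1 was called. In the cerebral cortex the methods' t-test gave 6 and array weights 25, and array weights gave 11 in the prefrontal cortex. The replicate numbers did not pair the arrays (correlations of same-numbered deviations -0.24 to 0.11). With the replicate block, CMS called 0 genes in the hippocampus (Kcnh2 kept 1.16 at adjusted p = 0.0526), and 11, 0, 4 and 0 passed adjusted p alone in the 4 areas. Leaving out each array in turn gave 11 to 19, 7 to 31, 4 to 15 and 1 to 2 genes at adjusted p alone, called 1 to 1 genes in the hippocampus, 0 to 1 (1 without CMS replicate 2) for the cerebral cortex and 0 to 0 elsewhere, and 5 to 6, 10 to 11, 6 to 8 and 7 to 8 in the control areas, and 6 to 7, 11 to 12, 7 to 9 and 4 to 5 in the CMS areas. The lowest hippocampal counts were without CMS replicate 2 or control replicate 2 (7 each), with 8 to 10 without CMS replicate 1 or 3 or control replicate 1. Counts in the amygdala fell to 11 without control replicate 1, in the cerebral cortex to between 4 and 6 without any CMS array or without control replicate 1 or 2, and in the prefrontal cortex to 1 without CMS replicate 1 or control replicate 1 or 2. For the genes named, 1261 of 1461 alternative values kept their direction and side of the threshold, 198 kept the direction only and 2 reversed. The causes were not tested.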
